A study of Homo sapiens with 12 samples.

Results

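The clustered protocadherins are cadherin-like adhesion proteins of the cell surface, encoded by the alpha, beta and gamma gene clusters that lie in tandem on 5q31. Every gene whose name in the count table begins with PCDHA, PCDHB, PCDHGA or PCDHGB and a number, or with PCDHAC or PCDHGC and a number, was taken, and 4 pseudogenes (PCDHB17P, PCDHB18P, PCDHB19P and PCDHGB8P) were left out. This gave 53 of the 26641 genes in the table, with 15 in the alpha, 16 in the beta and 22 in the gamma cluster. In GENCODE 44 on GRCh38, where all of them are protein-coding on the plus strand, the alpha cluster spans chr5:140786136-141012347, the beta cluster chr5:141051374-141249365 and the gamma cluster chr5:141330514-141512977.

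RNA was sequenced from 6 lines of NCCIT, a human embryonal carcinoma cell line, in 2 biological replicates per line. Each line expressed S. pyogenes dCas9 fused to the activation domain VPR (CRISPRa) or to the repression domain KRAB (CRISPRi), together with 1 of 3 arrays of 12 guide RNAs. With the LTR5HS Sp array the fusion binds LTR5HS, a class of HERVK long terminal repeats that mostly stand alone without a provirus. Libraries with this array are called recruitment (2 libraries per fusion). With a dCas9-GFP fusion and this array, the paper also reported binding at the related LTR5A, LTR5B and LTR5 repeats and at other sites. The LTR5HS Sa array carries the same targets on an S. aureus scaffold, the nontarget Sp array carries nontargeting guides, and both together are called control (4 libraries per fusion). All 6 lines, the control lines included, were treated with doxycycline for 4 days, so that the fusion was induced in every library. The fusions and then the arrays were integrated by PiggyBac transposition with drug selection, isolation of clones is not described for them, and each combination of fusion and array is represented by 1 line. A difference between arrays is therefore also a difference between lines. The recruitment comparison asks whether the members respond when LTR5HS is activated or silenced across the genome, and the control comparisons give the difference between lines beside which it is read.

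Each alpha and gamma protocadherin gene begins with a variable exon that has its own promoter and is spliced to constant exons common to its cluster, whereas each beta gene is essentially a variable exon alone. Neurons are known to switch on a small set of the variable promoters per cell, through DNA demethylation and CTCF- and cohesin-dependent looping to distant enhancers, and the resulting combination of surface proteins serves self-recognition of neurites. The C-type members, PCDHAC1, PCDHAC2, PCDHGC3, PCDHGC4 and PCDHGC5, lie at the ends of the alpha and gamma clusters and are known to follow other rules, with expression that is less variable between cells. In bulk RNA a lower level can mean fewer cells that express a gene or less RNA per cell, and the 2 cannot be told apart.

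A conserved element with the core CGCTG is known from many, not all, promoters of the variable exons. Stretches around matches to this core are shown for chosen members, with PCDHGC3 and PCDHGC4 as the C-type members. Promoter sequences from RefSeq (GRCh38.p14, 250 bases before to 50 bases after the gene start) were found for 47 of the 53 members. Entries for PCDHA3, PCDHA13, PCDHB6, PCDHB11, PCDHGA12 and PCDHGC5 were not matched. Of the 47, 40 held CGCTG on the gene's strand, with 8 of 13 alpha, 12 of 14 beta and 20 of 20 gamma members, and 41 held it on either strand. Over all 27305 gene symbols with a promoter of this length, 34.6% held CGCTG on the gene's strand and 51.7% on either strand. The lines below are on the plus strand, 5′ to 3′, with the core in capitals. The members shown were picked by hand. Where a promoter held several matches, the match whose flanks shared most short stretches with other members was taken. Likeness between the lines was therefore partly selected for.
PCDHA1 (chr5:140786072-140786136): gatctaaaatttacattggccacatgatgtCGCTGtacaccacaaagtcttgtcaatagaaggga
PCDHA8 (chr5:140841116-140841180): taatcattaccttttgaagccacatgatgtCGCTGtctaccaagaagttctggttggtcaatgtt
PCDHB3 (chr5:141100379-141100443): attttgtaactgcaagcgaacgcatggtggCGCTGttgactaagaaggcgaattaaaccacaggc
PCDHB5 (chr5:141135165-141135229): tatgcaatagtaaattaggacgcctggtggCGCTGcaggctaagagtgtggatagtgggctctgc
PCDHB15 (chr5:141245300-141245364): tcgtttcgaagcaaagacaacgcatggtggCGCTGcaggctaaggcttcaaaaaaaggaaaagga
PCDHGA1 (chr5:141330389-141330453): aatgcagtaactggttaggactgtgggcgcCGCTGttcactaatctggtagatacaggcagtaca
PCDHGA8 (chr5:141392554-141392618): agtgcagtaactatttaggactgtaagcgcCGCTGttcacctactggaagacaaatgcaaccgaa
PCDHGB4 (chr5:141387603-141387667): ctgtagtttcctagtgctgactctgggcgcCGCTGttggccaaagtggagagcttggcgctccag
PCDHGC3 (chr5:141475866-141475930): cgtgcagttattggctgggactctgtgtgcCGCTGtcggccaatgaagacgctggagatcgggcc
PCDHGC4 (chr5:141484938-141485002): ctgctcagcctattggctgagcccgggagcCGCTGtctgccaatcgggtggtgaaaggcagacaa

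The core stood 11 to 95 bases before the gene start in these 10 promoters. Within a cluster the bases just before it were alike. All 12 of the beta promoters with the core read GTGGCGCTG there, a string in 0.418% of all promoters on the gene's strand and 0.681% on either strand. In the gamma cluster 12 of 20 promoters read GCCGCTG, as in PCDHGC3 and PCDHGC4, against 6.85% of all promoters (13.1% on either strand). In the alpha cluster 6 of 13 read GTCGCTG, as in PCDHA1 and PCDHA8, against 2.15% (3.97% on either strand), and 6 of 20 gamma promoters read it too. These strings all contain the core and are descriptions of the letters, not of binding. A match to the core alone, as in PCDHGC4, does not show that the conserved element is present.

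The guides of the LTR5HS arrays had no exact match beside an NGG motif within the stretch of 726.8 kb that holds the 53 members. On all of chromosome 5 the 12 guides, each 16 bases long as listed by the study, had 141 such matches, of which 25 loci joined at least 3 different guides with gaps of at most 1000 bp. The nearest of these loci lay 8941 kb past the gamma cluster, and the nearest on the other side lay 20591 kb before the alpha cluster. Mismatched binding was not searched.

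The libraries held between 13601701 and 69797411 counts, and the deepest was dCas9-KRAB nontarget Sp replicate 2. Levels are given as CPM, a gene's count per 1000000 counts after TMM scaling of the library sizes, on which 3 counts correspond to between 0.0462 and 0.233 CPM. The exons common to every member amount to 2869 bp in the alpha cluster, 2177 bp in the gamma cluster and 0 bp in the beta cluster. PCDHGA3 nevertheless had between 0 and 5 counts per library, while the gamma members together had between 750 and 3497. Reads from the common exons were therefore not added to every member, and how they were assigned is not known. The markers of pluripotent and embryonal carcinoma cells were detected in all libraries, with LIN28A between 282.0 and 1513 CPM and SOX2 between 130.3 and 976 CPM. POU5F1, a core pluripotency factor, lay lower, between 9.76 and 112 CPM. Of the neural list, which includes genes of progenitors, NES (397 to 1599 CPM), TUBB3 (109.9 to 327 CPM), MAP2 (8.36 to 54.5 CPM), SYT1 (9.57 to 21.7 CPM) and DCX (4.95 to 9.75 CPM) were detected in every library, whereas NEUROD1 was at 0 to 0.0526 CPM and ELAVL4 at 0 to 0.293 CPM.

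A few members made up most of each cluster's counts. Of the 53 members, 37 had a mean of at least 1 CPM over the 12 libraries (8 alpha, 13 beta and 16 gamma) and 4 had at least 10 CPM, which were PCDHB5, PCDHB2, PCDHGC3 and PCDHGB4. PCDHB5 held a median of 44.1% of the beta counts (36.4 to 52.6% over the libraries), followed by PCDHB2 with 24.3% (22.2 to 28.1%). In the gamma cluster PCDHGC3 held 28.2% (24.9 to 43.2%), followed by PCDHGB4 with 15.8% and PCDHGA10 with 10.9%. The alpha cluster was more even, with 18.9% for PCDHA11, 17.0% for PCDHA4 and 16.8% for PCDHAC1, and the share of PCDHA4 ranged most widely, from 7.85 to 30.6%. Per kb of the gene length in the count table less the common exons, the order of the means over the 12 libraries was PCDHB5 (15.5 CPM per kb), PCDHB2 (9.47), PCDHGC3 (8.46), PCDHGB4 (5.26), PCDHGA10 (3.26), PCDHGC4 (2.87) and PCDHA4 (2.86). The neighbours PCDHGC4 and PCDHA4 in this order differed by less than either varied over the libraries. The order takes reads of the common exons as not counted for any alpha or gamma member, which is not known. At the low end, PCDHGA3 (0 to 0.281 CPM), PCDHB1 (0.0885 to 0.830 CPM) and PCDHGA7 (0.0532 to 0.515 CPM) did not pass the filter on low counts in any comparison, and PCDHA6 and PCDHA7 did not pass it in the recruitment comparison with dCas9-KRAB.

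**Figure D1:**
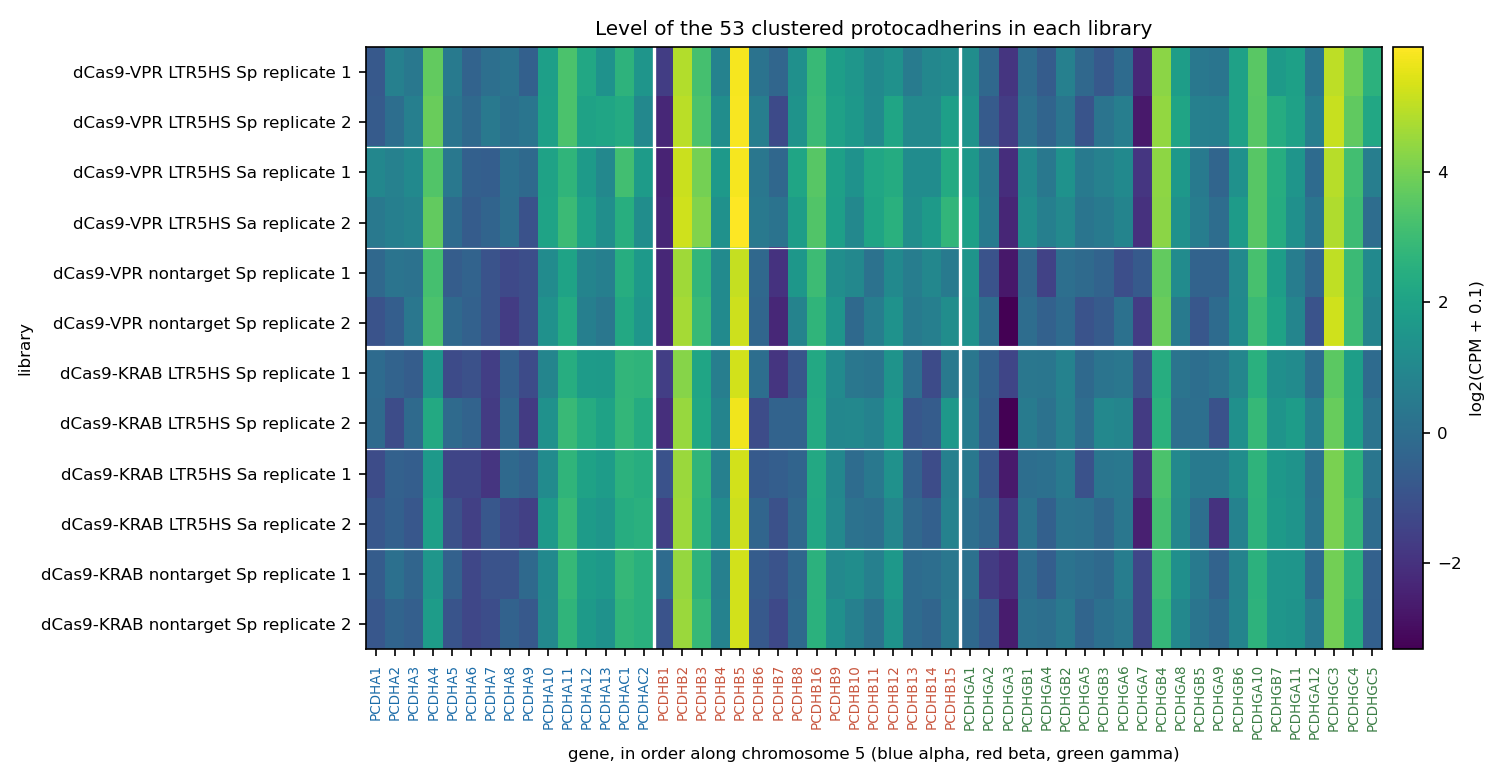
Level of the 53 clustered protocadherins (columns, in gene order) in each of the 12 libraries (rows), as log2(CPM + 0.1) in colour. White lines separate clusters, lines and fusions. PCDHB5, PCDHB2 and PCDHGC3 are bright in every row, whereas PCDHA4 and PCDHGB4 are brighter in the dCas9-VPR rows.

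The summed level of each cluster ranged more widely across the dCas9-VPR lines than across the dCas9-KRAB lines. The alpha sum was 50.1 and 50.2 CPM in the dCas9-VPR recruitment libraries, 47.4 and 45.9 CPM with LTR5HS Sa, and 31.8 and 31.6 CPM with nontarget Sp. The beta sum was 122 and 133 CPM with recruitment, 152 and 162 CPM with LTR5HS Sa, and 90.5 and 93.6 CPM with nontarget Sp. The gamma sum was 109.8 and 116 CPM, 103 and 99.7 CPM, and 82.4 and 87.5 CPM in the same order. In each cluster the nontarget Sp libraries were lowest, and in the beta cluster recruitment lay between the control lines. With dCas9-KRAB, the 6 libraries ranged from 33.1 to 40.5 CPM for alpha, from 78.7 to 99.4 CPM for beta and from 46.8 to 60.8 CPM for gamma. The beta sums of the recruitment replicates, 78.7 and 99.4 CPM, enclosed those of all 4 dCas9-KRAB control libraries. Sums were not tested.

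**Figure D2:**
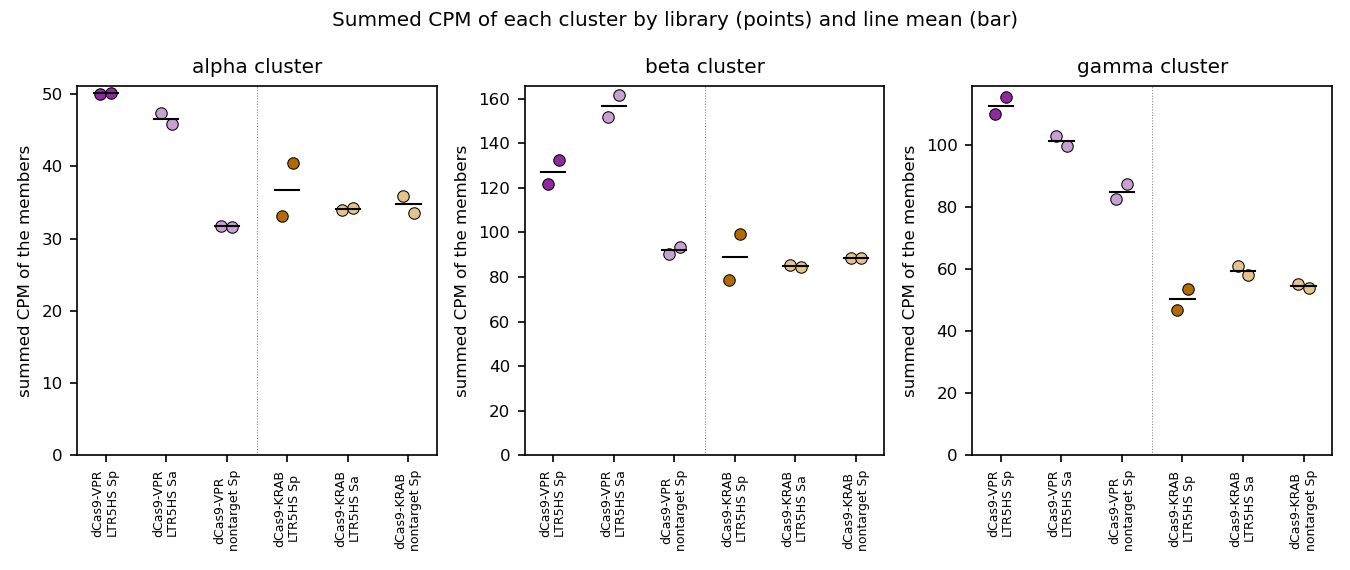
Summed CPM of the members of each cluster (y axis, linear from 0) in the 6 lines (x axis), with 1 point per library and a bar at the line mean. The dCas9-VPR nontarget Sp line sits below the other dCas9-VPR lines in each panel, at a mean of 31.7, 92.0 and 85.0 CPM for alpha, beta and gamma.

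With recruitment of dCas9-VPR to LTR5HS 2 members were higher, PCDHGC4 and PCDHGC5, which lie side by side at the end of the gamma cluster. Of the 53 members 50 were tested, and 2 were higher and 0 lower (edgeR's quasi-likelihood test, Benjamini-Hochberg adjusted over all genes, threshold 0.05). Of all 16271 genes tested 28.0% passed in either direction and 15.7% were higher. At an unadjusted p under 0.05 the count was 9 of 50 members, a threshold that at least 28.0% of all genes met. At the adjusted threshold the count was 7 in 1 fit of all 12 libraries, where 31.4% of all genes passed. Without dCas9-VPR LTR5HS Sa replicate 2 it was 5, where 26.4% of all genes passed. Without dCas9-VPR LTR5HS Sp replicate 1, which leaves 1 recruitment library, the members' median log2 fold change was 0.19. With all libraries the log2 fold changes were above 0 for 26 members and below 0 for 24, with a median of 0.07 against -0.02 over all genes. The median was 0.36 for the alpha, -0.20 for the beta and 0.16 for the gamma members.

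PCDHGC5 had the largest change. Its level was 6.01 and 4.57 CPM with recruitment, against 1.46 and 0.895 CPM with LTR5HS Sa and 2.01 and 1.68 CPM with nontarget Sp. Both recruitment libraries thus lay above all 4 control libraries. The log2 fold change was 1.82 (SE 0.30, edgeR adjusted p = 0.00302). PCDHGC4, which is known to be needed for the survival of interneurons, was at 14.7 and 12.4 CPM with recruitment, 8.54 and 7.91 CPM with LTR5HS Sa and 7.67 and 7.89 CPM with nontarget Sp. The groups did not overlap, and the control libraries lay within 1 CPM of each other. Its log2 fold change was 0.77 (SE 0.16, edgeR adjusted p = 0.00732). Without dCas9-VPR LTR5HS Sp replicate 1 it was 0.65, with an edgeR adjusted p of 0.094. The third C-type gamma gene, PCDHGC3, which lies next to them and was the most abundant gamma member, was at 31.7 and 35.4 CPM with recruitment, 30.1 and 27.9 CPM with LTR5HS Sa and 32.3 and 37.8 CPM with nontarget Sp. These groups overlapped, with a log2 fold change of 0.08 (SE 0.15, edgeR adjusted p = 0.733).

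**Figure D3:**
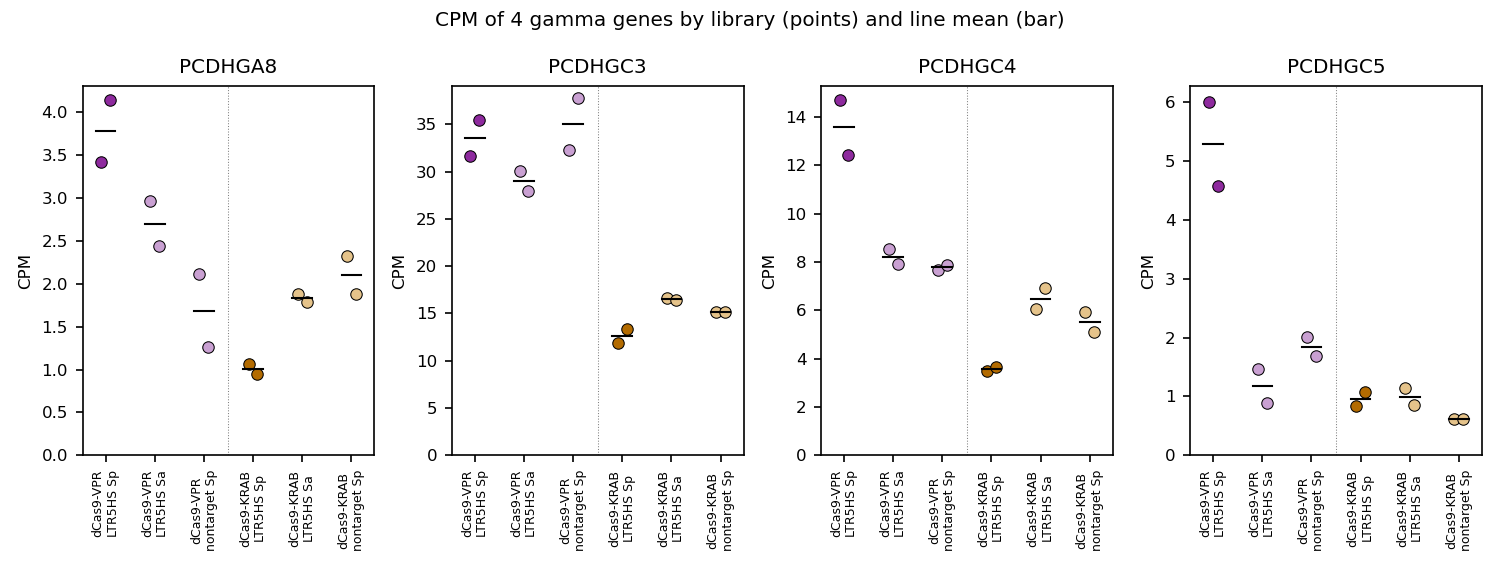
CPM of PCDHGA8, PCDHGC3, PCDHGC4 and PCDHGC5 (y axes, linear from 0) in the 6 lines, with 1 point per library and a bar at the line mean. For PCDHGC4 and PCDHGC5 the dCas9-VPR LTR5HS Sp points, at 12.4 to 14.7 and 4.57 to 6.01 CPM, lie above all other points, and for PCDHGA8 and PCDHGC4 the dCas9-KRAB LTR5HS Sp points lie below all others.

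The C-type alpha members did not pass the test. PCDHAC1 was at 6.18 and 4.95 CPM with dCas9-VPR recruitment and between 4.63 and 8.54 CPM in the 4 control libraries, with a log2 fold change of -0.10 (SE 0.28). PCDHAC2 was at 2.70 and 1.86 CPM with recruitment and between 2.19 and 3.28 CPM in the controls, with a log2 fold change of -0.30 (SE 0.27). For both genes the recruitment libraries overlapped the control range. PCDHA4, the alpha member with the highest mean over all libraries, was at 13.0 and 13.8 CPM with recruitment, 10.5 and 12.7 CPM with LTR5HS Sa and 9.06 and 9.68 CPM with nontarget Sp. The groups did not overlap, but the log2 fold change of 0.36 (SE 0.18) had an edgeR adjusted p of 0.176. PCDHB5, the most abundant member of all, was at 54.7 and 56.9 CPM with recruitment, 55.2 and 60.1 CPM with LTR5HS Sa and 33.8 and 37.2 CPM with nontarget Sp. The recruitment libraries overlapped the range of the LTR5HS Sa line and lay above the nontarget Sp line, and the log2 fold change was 0.27 (SE 0.24, edgeR adjusted p = 0.448).

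The same position between the control lines was seen for much of the beta cluster. The mean of the dCas9-VPR recruitment line lay between the means of the LTR5HS Sa and nontarget Sp lines for 11 of 15 beta members, against 4 of 15 alpha and 7 of 20 gamma members. For all genes tested this share was 19.3%. Both recruitment libraries lay above all 4 control libraries for 13 members (5 alpha, 1 beta and 7 gamma), or 26.0% of those tested, against 25.0% of all genes. Both lay below them for 0 members, against 25.0% of all genes. The choice of control line moved the count of members that passed. With the nontarget Sp libraries alone as control 13 members were higher and 0 lower, where 16.4% of all genes were higher. With the LTR5HS Sa libraries alone 2 were higher and 7 lower, where 16.1% of all genes were lower. Both control sets share the recruitment libraries. From PCDHGC3 to PCDHGC5 the log2 fold changes reached 1.53 against nontarget Sp and 2.15 against LTR5HS Sa, both in PCDHGC5. Genes of other cell types were also compared with dCas9-VPR recruitment. Of the neural list 0 of 9 tested genes were higher and 1 was lower (median log2 fold change -0.65). Of the fibroblast list 4 of 6 tested genes were higher, where 15.7% of all genes were. The summed level of the fibroblast list was 2994 to 3118 CPM against 111 to 177 CPM in the dCas9-VPR controls. Nearly all of it was COL1A1, a collagen chain that reached 2992 CPM, while its partner chain COL1A2 did not pass 0.266 CPM in any library. The part of this difference in the levels of the members was not tested.

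Along the chromosome the dCas9-VPR differences formed runs of like sign, which were seen only after the values were known and are given without a test. From PCDHGA1 to PCDHGA7 the log2 fold changes of all 8 tested members were below 0 (median -0.45, from -0.66 to -0.16). From PCDHGB4 to PCDHGA12, 8 of 9 were above 0 (median 0.65), with PCDHGB7 at -0.11. The runs depended on the control line to different degrees. Against LTR5HS Sa alone the PCDHGA1 to PCDHGA7 stretch kept 8 of 8 members below 0, with a median of -0.89, whereas against nontarget Sp alone 6 of 8 were above 0, with a median of 0.30. The PCDHGB4 to PCDHGA12 stretch had a median of 0.40 against LTR5HS Sa and 0.94 against nontarget Sp. In the alpha cluster all 9 members from PCDHA5 to PCDHA13 were above 0 (median 0.75), led by PCDHA7 at 1.03 (SE 0.36) and PCDHA13 at 1.00 (SE 0.33), and neither passed (edgeR adjusted p = 0.0628 and 0.055). For that stretch the median was 0.32 against LTR5HS Sa and 1.25 against nontarget Sp.

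**Figure D4:**
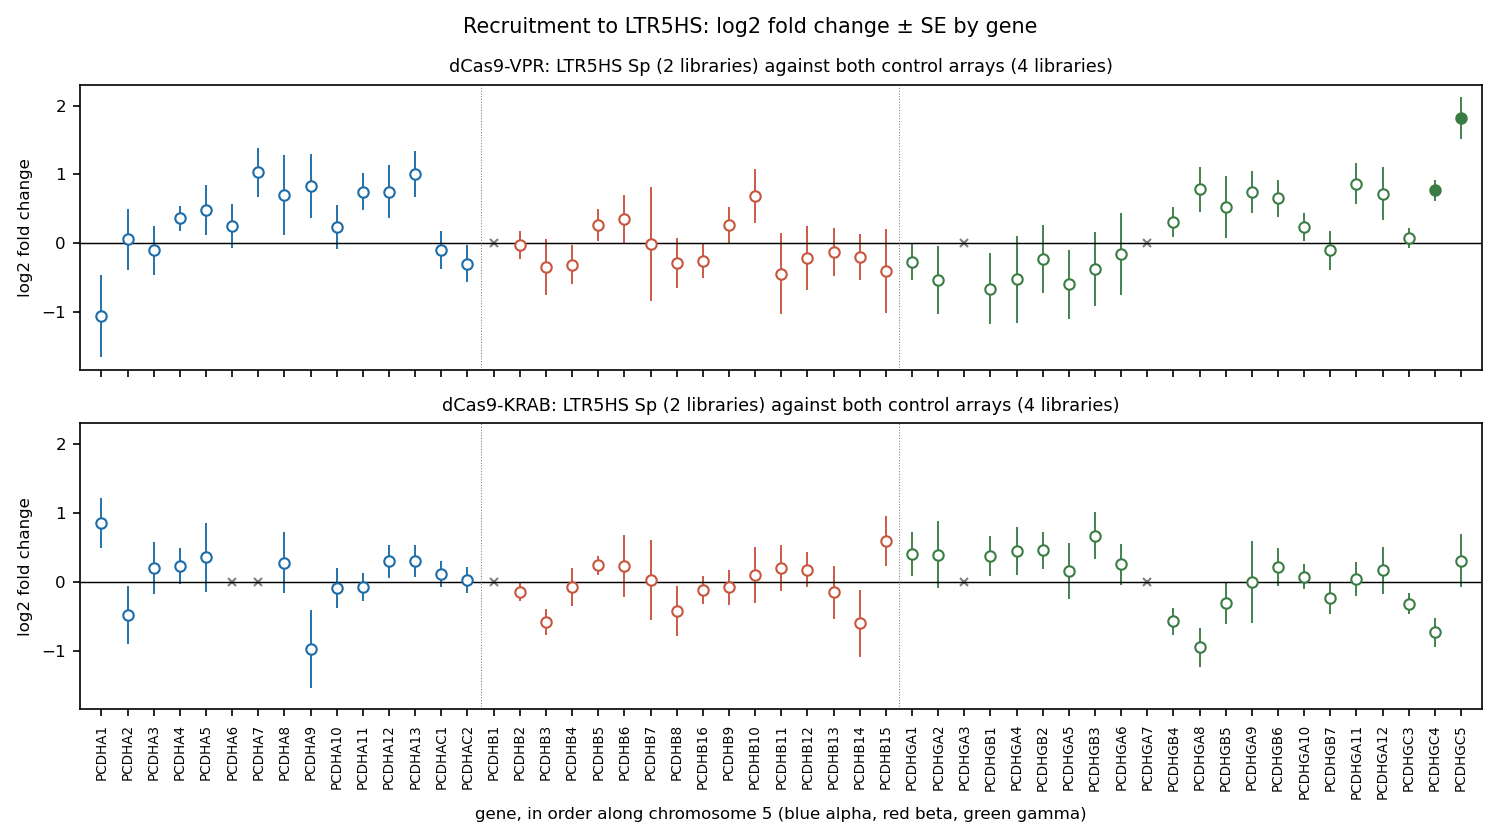
Log2 fold change of recruitment against control (y axis, points, with bars of 1 SE) for each member in gene order (x axis), for dCas9-VPR above and dCas9-KRAB below. Filled points passed the adjusted threshold of 0.05, open points did not and crosses were not tested. The 2 filled points, at 0.77 and 1.82, are PCDHGC4 and PCDHGC5 with dCas9-VPR.

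Recruitment of dCas9-KRAB changed 0 of 48 members tested by edgeR at an adjusted p under 0.05, where 2.77% of 15520 genes passed. DESeq2 called 0 as well. An unadjusted p under 0.05 was seen for 5 members, which were PCDHA1, PCDHB3, PCDHGB4, PCDHGA8 and PCDHGC4. The share of all genes at that unadjusted threshold was not computed. PCDHGC4 was at 3.48 and 3.64 CPM with dCas9-KRAB recruitment, 6.05 and 6.91 CPM with LTR5HS Sa and 5.94 and 5.10 CPM with nontarget Sp, so that the groups did not overlap. Its log2 fold change was -0.73 (SE 0.21, edgeR adjusted p = 0.133). In 1 fit of all 12 libraries the value was the same, -0.73, and passed with an edgeR adjusted p of 0.046. PCDHGA8 was at 1.07 and 0.945 CPM with recruitment, 1.88 and 1.79 CPM with LTR5HS Sa and 2.33 and 1.88 CPM with nontarget Sp, again without overlap. Its log2 fold change was -0.95 (SE 0.28, edgeR adjusted p = 0.146). PCDHGC5 was at 0.843 and 1.08 CPM with recruitment, within the control range of 0.616 to 1.14 CPM.

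The other members named above also stayed short of the threshold with dCas9-KRAB. PCDHGC3 was at 11.9 and 13.4 CPM with recruitment and between 15.2 and 16.6 CPM in the 4 control libraries, with a log2 fold change of -0.31 (SE 0.15, edgeR adjusted p = 0.397). PCDHB5 was at 38.4 and 52.3 CPM against 37.3 to 39.0 CPM, with a log2 fold change of 0.24 (SE 0.14). The 2 recruitment replicates of PCDHB5 differed by more than the control libraries did. PCDHA4 was at 2.70 and 4.79 CPM against 2.82 to 3.57 CPM, PCDHAC1 at 6.57 and 6.88 CPM against 5.28 to 7.06 CPM, and PCDHAC2 at 6.29 and 5.06 CPM against 5.31 to 5.77 CPM. Both recruitment libraries lay below all 4 control libraries for 7 members, which were PCDHB3, PCDHB8, PCDHGB4, PCDHGA8, PCDHGB7, PCDHGC3 and PCDHGC4, where 12.3% of all genes did so. They lay above them for 4 members (PCDHA1, PCDHGB1, PCDHGA4 and PCDHGB2), where 10.8% of all genes did so. The recruitment line lay between the control lines for 10 members, or 20.8%, against 29.2% of all genes. Across the PCDHGA1 to PCDHGA7 stretch 8 of 8 tested members had log2 fold changes above 0 (median 0.40), and 1 of these members, PCDHGB3, reached 0.67.

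The effect of recruitment differed between the fusions for 3 gamma members in the interaction test over all 12 libraries, where 21.0% of 16673 genes passed. The effect with dCas9-VPR exceeded that with dCas9-KRAB by 1.50 (SE 0.24) for PCDHGC4, on the log2 scale, with an edgeR adjusted p of 0.000588. For PCDHGA8 the difference was 1.74 (SE 0.44, edgeR adjusted p = 0.0126). PCDHGA8 had 3.42 and 4.15 CPM with dCas9-VPR recruitment and between 1.26 and 2.97 CPM in the dCas9-VPR controls, with a log2 fold change of 0.79 (SE 0.33) that did not pass by itself (edgeR adjusted p = 0.111). For PCDHGC5 the difference was 1.50 (SE 0.50, edgeR adjusted p = 0.049), near the threshold. With a threshold of 0.01, PCDHGC4 was the 1 member called of 50, where 11.7% of all genes passed. The count also fell when any 1 recruitment library was left out, as did the share of all genes, with 1 library then left in its group. With all libraries the next member after these 3, PCDHGB4, had a difference of 0.88 (SE 0.30) and an edgeR adjusted p of 0.0524.

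Between the dCas9-VPR control lines, in neither of which the fusion is recruited to LTR5HS, 12 members were higher with LTR5HS Sa than with nontarget Sp and 0 were lower. They made up 24.0% of the 50 members tested, where 2.15% of 16673 genes were higher. The 12 were PCDHA8 and PCDHA12, the beta members PCDHB2, PCDHB3, PCDHB5, PCDHB7, PCDHB11, PCDHB12 and PCDHB15, and PCDHGB1, PCDHGB2 and PCDHGB4. The log2 fold changes were above 0 for 46 of 50 members, with a median of 0.71 against -0.02 over all genes, and for all 15 beta members. With the replicate number as a block, which pairs equal numbers, 19 members and 5.82% of all genes were higher. Leaving out 1 library of these lines leaves 1 in its line, and fewer members and fewer of all genes passed. The members' median log2 fold change was 0.71 without LTR5HS Sa replicate 1 and 0.76 without LTR5HS Sa replicate 2. It was 0.71 without nontarget Sp replicate 1 and 0.62 without nontarget Sp replicate 2. Markers of the cells moved with this contrast too. The summed level of the neural list was 1691 to 1874 CPM with LTR5HS Sa and 1109 to 1221 CPM with nontarget Sp, with 3 of 9 genes higher (NES, STMN2 and SOX1), and that of the embryonal carcinoma and pluripotency list was 2049 to 2222 CPM against 1389 to 1576 CPM, with 3 of 10 higher. NES was the largest part of the neural sum in every library. Of the fibroblast list 0 of 7 were higher and 1 was lower. The part of these differences in the levels of the members was not tested.

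The difference was clearest in PCDHB3 and PCDHB11, the 2 members that also passed a threshold of 0.01, where 2.02% of all genes passed. PCDHB3 was at 15.5 and 17.7 CPM with LTR5HS Sa and at 6.69 and 7.41 CPM with nontarget Sp, a log2 fold change of 1.24 (SE 0.17, edgeR adjusted p = 0.00152). PCDHB11 was at 4.29 and 4.13 CPM against 1.03 and 1.42 CPM, a log2 fold change of 1.78 (SE 0.31, edgeR adjusted p = 0.00536). The recruitment line stood between them in both genes, with 8.93 and 9.68 CPM for PCDHB3 and 1.99 and 2.02 CPM for PCDHB11. PCDHB7 also passed, from 17 and 21 counts with LTR5HS Sa and 3 and 2 counts with nontarget Sp, which is at or under the floor of 3 counts. The C-type members had log2 fold changes of -0.63 for PCDHGC5, -0.27 for PCDHGC3, -0.08 for PCDHAC2, 0.08 for PCDHGC4 and 0.51 for PCDHAC1. These 5 did not pass, nor did most of the other members, and C-type and other members were not compared by a test.

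Between the dCas9-KRAB control lines 0 of 50 members passed in edgeR's test, where 0.612% of genes did. An unadjusted p under 0.05 was seen for 1 member, and the share of all genes at that threshold was not computed. Their median log2 fold change was -0.01, with 24 above and 26 below 0. PCDHB3, for example, was at 6.45 and 5.98 CPM with LTR5HS Sa and 6.10 and 7.13 CPM with nontarget Sp. Whether the array difference itself differs between the fusions was not tested.

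**Figure D5:**
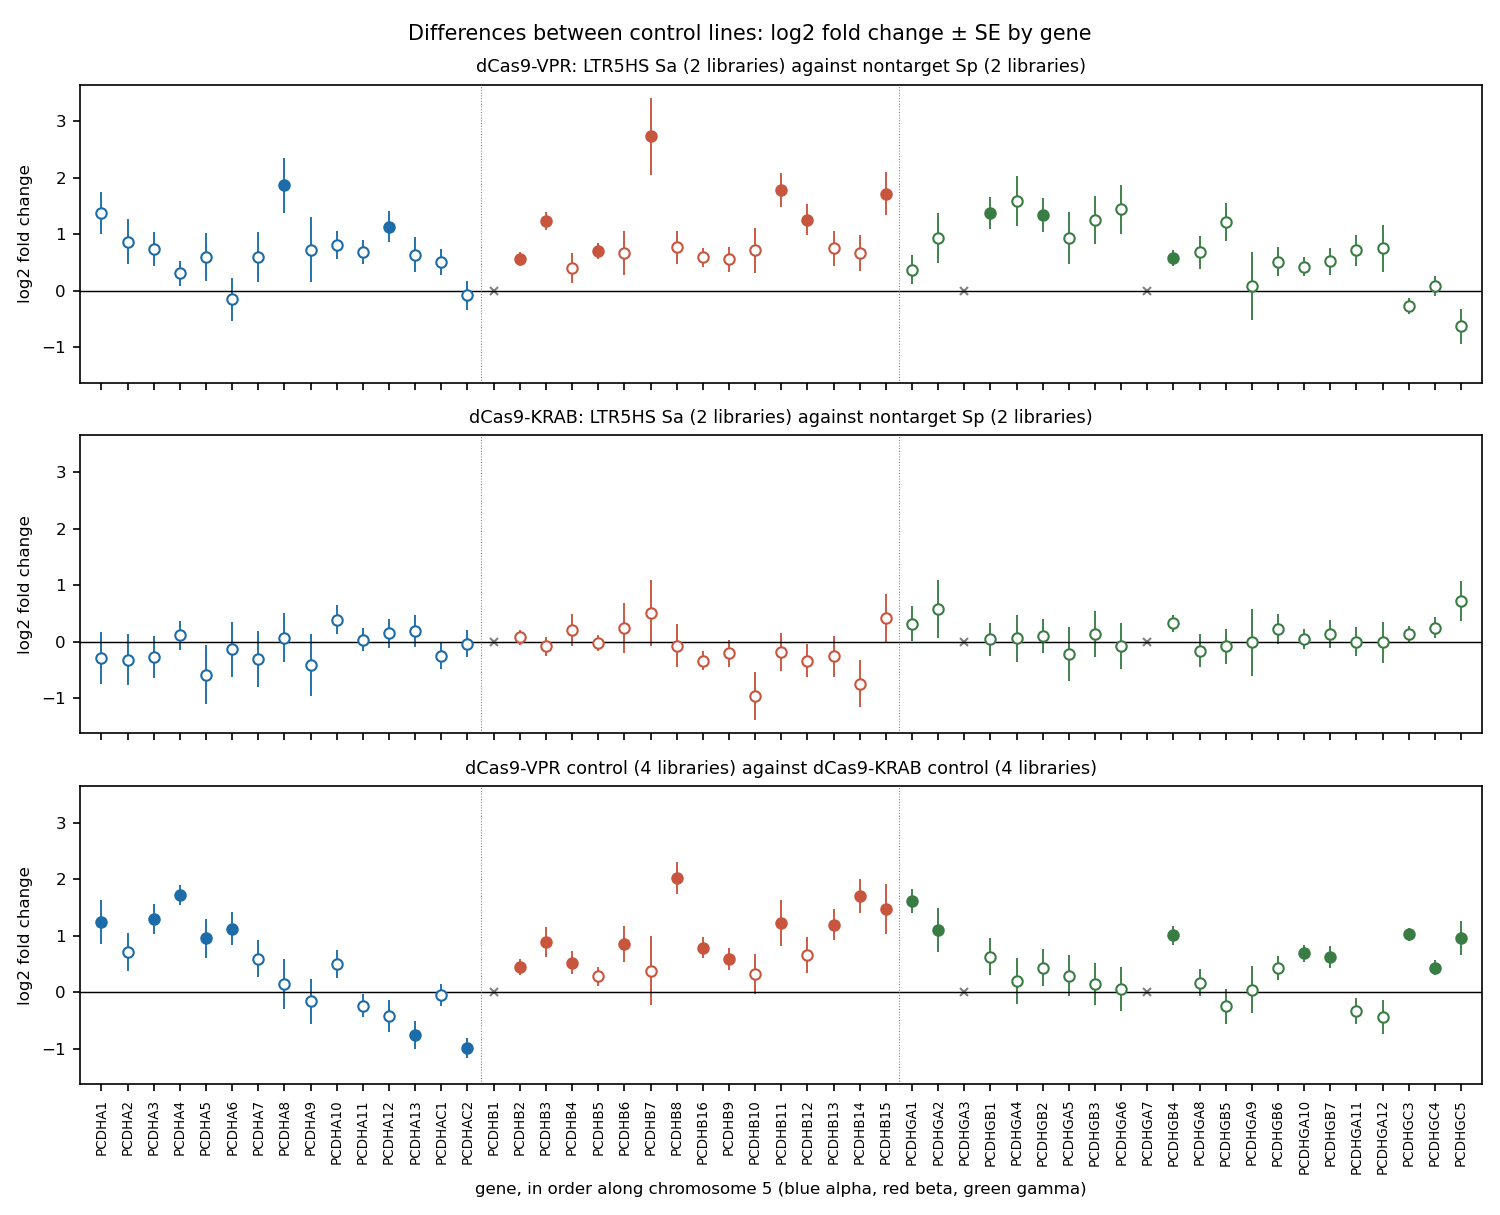
Log2 fold change (y axis, points, with bars of 1 SE) of each member in gene order (x axis) for LTR5HS Sa against nontarget Sp with dCas9-VPR (top) and dCas9-KRAB (middle), and for dCas9-VPR control against dCas9-KRAB control (bottom). Filled points passed the adjusted threshold of 0.05, open points did not and crosses were not tested. In the top panel 46 of 50 points lie above 0, in the middle panel 24 of 50.

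The members also differed between the fusions without recruitment. In the dCas9-VPR control libraries 24 of 50 members were higher and 2 lower than in the dCas9-KRAB control libraries, where 55.4% of all genes passed in either direction and 27.1% were higher. The 24 were 5 alpha, 11 beta and 8 gamma members, and all 15 beta members tested had log2 fold changes above 0 (median 0.79, against -0.01 over all genes). Without dCas9-VPR LTR5HS Sa replicate 1 the count in either direction was 17 instead of 26, where 51.6% of all genes passed. In a comparison, chosen after seeing the data, of the LTR5HS Sa lines alone 24 members were higher and 1 lower, where 19.6% of all genes were higher. In the nontarget Sp lines alone 10 were higher and 6 lower, where 23.9% of all genes were higher, and the median over members was 0.13 instead of 0.85.

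The largest differences were seen in members of each cluster. PCDHA4 was between 9.06 and 12.7 CPM in the 4 dCas9-VPR controls and between 2.82 and 3.57 CPM in the 4 dCas9-KRAB controls, a log2 fold change of 1.73 (SE 0.18, edgeR adjusted p = 7e-06). PCDHB8 was between 1.63 and 4.25 CPM against 0.685 to 0.785 CPM, a log2 fold change of 2.03 (SE 0.28). PCDHB14, at 1.71 (SE 0.31), came next among the beta members, and PCDHGA1, at 1.62 (SE 0.22), led the gamma members. PCDHGC3 was between 27.9 and 37.8 CPM against 15.2 to 16.6 CPM, a log2 fold change of 1.03 (SE 0.11). The groups of 4 libraries did not overlap for any of PCDHA4, PCDHB8 and PCDHGC3. The share of all genes without overlap was not computed, and 55.4% of all genes passed the test in this contrast. PCDHAC2 went the other way, with 2.19 to 3.28 CPM against 5.31 to 5.77 CPM, a log2 fold change of -0.98 (SE 0.18, edgeR adjusted p = 0.000464), and PCDHA13 was lower by the same test, at -0.75 (SE 0.24). These genes were chosen for mention after their values were seen.

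Markers of the cells moved with this contrast, in which 27.1% of all genes were higher and 28.3% lower. All 10 genes of the embryonal carcinoma and pluripotency list were lower in the dCas9-VPR controls, with a median log2 fold change of -1.83, and their summed level was 1389 to 2222 CPM against 5807 to 7236 CPM in the dCas9-KRAB controls. In the dCas9-VPR recruitment libraries it was 1533 to 1623 CPM. There 1 gene (L1TD1) was higher and 2 (SOX2 and DNMT3B) lower than in the dCas9-VPR controls, where 28.0% of all genes passed in either direction. Of the neural list 1 of 9 tested genes was higher, which was NES, the intermediate filament of neural progenitors, and 4 were lower. The list's median log2 fold change was -0.47. Its summed level, of which NES was the largest part in every library, was 1109 to 1874 CPM against 706 to 1075 CPM. Of the fibroblast list 2 of 7 tested genes were higher and 2 lower. Their summed level was 111 to 177 CPM against 201 to 228 CPM. The part of these differences in the levels of the protocadherins was not tested.

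With dCas9-KRAB recruitment 0 of 25 factors known to act at the clusters changed by edgeR at the adjusted threshold of 0.05, where 2.77% of all genes did. With dCas9-VPR recruitment 2 of the 25 were higher and 2 lower (median log2 fold change -0.15), where 28.0% of all genes passed in either direction. WIZ, a zinc finger partner of histone H3K9 methyltransferases, rose to 146 ± 23.7 CPM (SD, n = 2), against 74.1 ± 11.7 CPM (SD, n = 4) in the controls, a log2 fold change of 0.99 (SE 0.17). REST, a repressor of neuronal genes, rose by 0.41 (SE 0.13). DNMT3B, a de novo DNA methyltransferase known to methylate variable promoters of the clusters, fell by 0.62 (SE 0.14), and SMC1A, a cohesin subunit, fell by 0.43 (SE 0.10). Between the dCas9-VPR and dCas9-KRAB controls 3 factors were higher and 13 lower, where 55.4% of all genes passed in either direction. DNMT3B had the largest drop, at 233 ± 29.5 CPM (SD, n = 4) in the dCas9-VPR controls, with a log2 fold change of -2.49 (SE 0.15). CTCF, which binds the variable promoters and their enhancers, was at -0.39 (SE 0.08). Between the dCas9-VPR control lines, where 12 protocadherins and 5.24% of all genes passed, 0 of the 25 factors passed in edgeR's test.

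Among 20 genes for partners and processing of the proteins, 4 were higher and 2 lower with dCas9-VPR recruitment (median log2 fold change -0.05). Of all genes 28.0% passed in either direction and 15.7% were higher. ABI1, a subunit of the WAVE actin regulatory complex that clustered protocadherins recruit, rose by 1.11 (SE 0.13), and PSENEN, a subunit of the gamma-secretase that cleaves them, rose by 0.66 (SE 0.15). RET, a receptor tyrosine kinase that associates with alpha and gamma protocadherins, fell by 1.64 (SE 0.26), and NLGN2, a neuroligin of inhibitory synapses, fell by 1.05 (SE 0.18). With dCas9-KRAB recruitment 1 of 20 was higher, where 2.77% of all genes passed in either direction. It was PTK2B, a focal adhesion kinase inhibited by the common cytoplasmic ends, which rose by 1.13 (SE 0.22) with an edgeR adjusted p of 0.0217.

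With dCas9-KRAB recruitment 0 of 21 tested cadherins and protocadherins that lie outside the clusters passed, where 2.77% of all genes did. With dCas9-VPR recruitment 4 of the 21 were higher and 4 lower, where 28.0% of all genes passed in either direction. PCDH7 rose to 313 CPM, the mean of 2 libraries, against a control mean of 15.9 CPM, a log2 fold change of 4.30 (SE 0.17), and no clustered member had a larger one. PCDH11X rose by 2.87 (SE 0.48), the atypical cadherin FAT3 rose by 2.82 (SE 0.61), and DCHS2 fell by 2.45 (SE 0.54) from a level of 1.36 CPM. Between the dCas9-VPR control lines 7 of these 21 genes were higher with LTR5HS Sa and 2 lower, with a median log2 fold change of 0.62. Of all genes 2.15% were higher and 3.09% lower in that contrast. Of 17 tested neighbours of the clusters on 5q31, 0 were higher and 1 lower with dCas9-VPR recruitment, which was ARAP3 at -0.94 (SE 0.24), and 0 of 16 passed with dCas9-KRAB. Between the dCas9-VPR control lines 0 of 17 neighbours were higher and 1 was lower, with a median of -0.10.

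The genes whose pattern over the 12 libraries was most like the summed level of the members, among 14494 genes with a mean of at least 1 CPM, were DPYSL4 (Pearson's r = 0.971), PNRC1 (0.963), FLJ16779 (0.960), LBHD1 (0.956) and EMILIN1 (0.956). The values are correlations of log2 CPM, and the 12 points share 6 lines. DPYSL4, a member of the collapsin response mediator family, ranged from 14.2 to 59.6 CPM.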

How the data were processed

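RNA-seq of poly(A) RNA from 12 NCCIT libraries was used. The authors deposited 1 table of whole-number read counts by gene, with gene lengths in a further column. According to the submitters' processing notes and the methods, the authors used CASAVA 1.8, cutadapt 1.8.1, HISAT2 2.1.0 and featureCounts 1.4.6-p2 on hg38. The gene annotation, the strand setting and the treatment of reads that match several genes are not given in the sources used here. Members of a cluster are paralogs with common exons, so reads of near-identical stretches may be missing from or split between them. The library preparation names no strand-marking step, and antisense transcripts of the clusters cannot be told apart from the genes. The members and lists were chosen with earlier results of these data known, and the adjusted p-values are those over all genes.

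Groups came from the labels, with LTR5HS Sp as recruitment and LTR5HS Sa and nontarget Sp as control. Testing used edgeR 4.0.16 under R 4.3.3 (filterByExpr, TMM, quasi-likelihood F-test, Benjamini-Hochberg, threshold 0.05), per fusion for recruitment and in 1 fit of all 12 libraries for the interaction and the control comparisons. SE is the log2 fold change divided by the root of F. DESeq2 1.42.0 was an alternative. Replicate differences correlated between arrays at 0.22 to 0.314 with dCas9-VPR and 0.176 to 0.373 with dCas9-KRAB, over 16736 genes and above 0.1 in every pair, so equal replicate numbers were taken as paired and the block was run as an alternative. The labels call the replicates independent. With 2 replicates of 1 line per array, p-values measure the spread between libraries and not between lines. Counts were simulated with 200 genes changed by 2 on the log2 scale. On them edgeR recovered 196 for CRISPRa (16271 genes, 19 of 215 calls false) and 200 for CRISPRi (15520 genes, 7 of 207 false). For the interaction it recovered 180 (16673 genes, 10 of 190 calls false). For LTR5HS Sa against nontarget Sp it recovered 199 with dCas9-VPR (20 of 219 false) and 195 with dCas9-KRAB (10 of 205 false). For the control comparison of the fusions it recovered 198 (7 of 205 false). The changed genes were drawn from those with higher expected counts. Recovery at the low counts or smaller changes of most members was not simulated. The floor of 3 counts covers counting error only. Values per library were given for members past the threshold, the most abundant member of each cluster and the C-type members, and genes of related lists were named when among the 4 largest changes past the threshold. Other members were named after their values were seen. Python 3.11.15, pandas 2.3.3 and matplotlib 3.10.9 were used for the rest. Repeat transcripts and ChIP-seq were not analysed here.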

Additional observations from a re-analysis of the deposited data

Results flagged for a closer look

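Listed are members in which 1 of 4 control libraries lay far from the other 3, and members whose response differed between the fusions. In 9 of 106 groups of 4 control libraries, 1 per member and fusion, the gap of the extreme library to its neighbour took more of the range than Dixon's critical value of 0.829, and chance flags about 1 in 20 groups, or 5.3 of 106. With dCas9-KRAB, LTR5HS Sa replicate 2 was the far library for PCDHA6 (ratio of gap to range 0.879), PCDHA10 (0.83), PCDHB4 (0.884) and PCDHB5 (0.942). For PCDHB5 it stood at 37.3 CPM beside 38.9 to 39.0 CPM, a small gap in a narrow range, whereas for PCDHA10 it stood at 3.03 CPM beside 1.92 to 2.11 CPM. For PCDHA2 (0.831) and PCDHGA6 (0.829) it was nontarget Sp replicate 1, and for PCDHGB6 (0.893) LTR5HS Sa replicate 1. With dCas9-VPR, LTR5HS Sa replicate 1 was the far library for PCDHA9 (0.914), at 0.797 CPM beside 0.360 to 0.398 CPM, and nontarget Sp replicate 1 for PCDHGA7 (0.833), which did not pass the filter on low counts.

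The effect of recruitment differed between dCas9-VPR and dCas9-KRAB in edgeR's interaction test by 1.74 on the log2 scale for PCDHGA8, 1.5 for PCDHGC4 and 1.5 for PCDHGC5, each higher with dCas9-VPR.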

How the results depend on the processing

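In the recruitment comparison with dCas9-VPR 15.5 to 28.0% of all genes passed under DESeq2, DESeq2's size factors, no filter and the threshold of 0.01. The count of members called was 2 under each of these. It was 7 in 1 fit of all 12 libraries (31.4% of all genes), 9 with LTR5HS Sa alone as control (34.9%) and 13 with nontarget Sp alone (29.9%). Leaving out 1 control library gave 2 to 5, where 23.2 to 28.6% of all genes passed. The median log2 fold change of 0.07 became -0.194 with LTR5HS Sa alone and 0.589 with nontarget Sp alone, and 0.01 to 0.231 with 1 library left out. With dCas9-KRAB 1 member was called in the fit of all 12 libraries, where 2.81% of all genes passed. With 1 control library left out 0 were called, where 1.85 to 2.88% of all genes passed. The median was -0.113 to 0.261 with any 1 library left out. The interaction count was 1 at a threshold of 0.01 (11.7% of all genes) and 2 to 4 with 1 control library left out (17.8 to 21.3%). The control comparison of the fusions gave 12 of 50 at 0.01 (41.3% of all genes) and 17 of 29 with at least 10 counts in every library (56.9%). It gave 16 of 50 in the nontarget Sp lines alone (48.0%) and 17 to 30 with 1 control library left out (48.5 to 56.0%). Between the dCas9-VPR control lines 2 were called at 0.01 and 2 to 11 with 1 library left out. With the replicate number as a block, which pairs equal numbers, this count was 19, where the share of all genes called higher went from 2.15% to 5.82%, and the block changed no other count by over 1.5 times. Signs turned for members that did not pass. With dCas9-VPR, PCDHAC1 was 0.186 and PCDHGC3 -0.047 against nontarget Sp alone, and PCDHB5 was -0.049 against LTR5HS Sa alone, and leaving out 1 library gave -0.262 to 0.133 for PCDHAC1 and -0.013 to 0.163 for PCDHGC3. With dCas9-KRAB, PCDHAC1 was -0.002 against nontarget Sp alone and PCDHGC5 -0.074 against LTR5HS Sa alone, and leaving out 1 library gave -0.238 to 0.598 for PCDHA4, -0.141 to 0.165 for PCDHAC2 and -0.005 to 0.45 for PCDHB5. The cause was not tested, except that fewer members reach 10 counts in every library. Depth limits the members near the floor of 3 counts, of which 3 did not pass the filter in any comparison and 5 did not with dCas9-KRAB recruitment. Without the filter all 53 were tested.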

Other observations

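Between the dCas9-VPR control lines, the genes outside the clusters with the largest differences among cadherins were PCDH17, PCDH8 and FAT3, with log2 fold changes of 3.18, 2.57 and 2.42 for LTR5HS Sa against nontarget Sp. CDH2, the neural cadherin, was higher by 0.74 and CDH1, the epithelial cadherin, was at -1.16 in the same contrast, and all 5 passed edgeR's adjusted threshold of 0.05.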
